A study of Caenorhabditis elegans with 2 samples.

Results

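The spliced leader (SL) RNA genes of the nematode Caenorhabditis elegans are 30 of the 46926 genes in the annotation used here, and were taken by name: 12 genes called sls-1 encode SL1 RNA and 18 genes called sls-2 encode SL2 RNA. Each was scored by whether the summit of a chromatin immunoprecipitation peak lay in the gene or within 500 bp of it. In the larger of the peak sets drawn from both replicates, 5 of 18 SL2 genes and 0 of 12 SL1 genes had a listed peak, beside 1.8% of all annotated genes. At that share a count of 0 among 12 genes sets SL1 genes apart from no other gene. A candidate peak of any rank was present at 13 SL2 genes (72.2%) and 2 SL1 genes (16.7%), beside 18.9% of all genes. The genes sls-2.1, sls-2.4, sls-2.8 and sls-2.9 had a listed peak in each of the 4 listed sets.

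The chromatin came from whole young adult worms of strain RW12270, in which CRISPR editing placed TY1, EGFP and 3xFLAG tags on Y53F4B.3 at its own locus on chromosome II, and an antibody against GFP was used for the precipitation. The annotation names this gene pole-4, after a histone-fold subunit of DNA polymerase epsilon. The worms were synchronised by bleaching and larval starvation, collected at 64 h, and gave 1 group of 2 biological replicates; untagged worms were not analysed here, so every comparison is between genes and between replicates. A whole worm mixes all tissues, so that a weaker peak in every cell and a peak in fewer cells cannot be told apart. Each of 4 sets (larger, conservative, replicate 1, replicate 2) had a ranked list of candidates and a listed subset that met the authors' threshold. The threshold is an irreproducible discovery rate (IDR) of 0.01, where the IDR of a peak is the expected share of irreproducible peaks among those ranked at least as high. The larger set held 465 listed peaks of 9477 candidates (4.91%), the conservative set 437 of 12529, replicate 1 had 287 of 18181 and replicate 2 had 248 of 27101. Peak lists carry no read counts, so the depth is unknown, and the replicates give no p-value because nothing is compared with a second group.

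Spliced leader RNAs are short non-coding RNAs that donate their first bases, the leader, to the 5' ends of messenger RNAs by trans-splicing. SL1 is joined to the first or only gene of a transcription unit, while SL2 and its variants are joined mainly to the downstream genes of operons. Like most small nuclear RNAs they are made by RNA polymerase II from short promoters that hold a proximal sequence element, which the SNAPc complex binds, and they are packed with Sm proteins at a uridine-rich site. SL1 genes lie in the tandem array of 5S ribosomal RNA genes, whereas SL2 genes are dispersed over several chromosomes. Some SL2 genes lie close together, such as sls-2.2 and sls-2.3, or sls-2.14 and sls-2.15. The assembly is known to hold fewer units of the array than the worm genome does.

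The sequences of 5 genes show the leader that defines each RNA, and they were chosen as the SL2 genes with the strongest peak (sls-2.8), with a peak next to the 5' end in all sets (sls-2.1), with listing that differed between sets (sls-2.16 and sls-2.18), and as the SL1 copy nearest to the strongest candidate of the array. All were read 5' to 3' from the RefSeq genome, assembly WBcel235 (ce11), with the leader in capitals.
sls-2.1, chrII:5844865-5844974, plus strand: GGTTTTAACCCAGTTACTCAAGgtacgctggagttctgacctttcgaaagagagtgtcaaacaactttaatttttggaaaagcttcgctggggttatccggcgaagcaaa
sls-2.8, chrIII:12250465-12250575, plus strand: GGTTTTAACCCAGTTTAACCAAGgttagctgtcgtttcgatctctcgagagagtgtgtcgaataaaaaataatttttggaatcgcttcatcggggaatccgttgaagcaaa
sls-2.16, chrIII:7141391-7141499, plus strand: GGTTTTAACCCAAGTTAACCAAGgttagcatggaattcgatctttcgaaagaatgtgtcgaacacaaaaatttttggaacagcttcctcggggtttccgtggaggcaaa
sls-2.18, chrIII:7142291-7142397, plus strand: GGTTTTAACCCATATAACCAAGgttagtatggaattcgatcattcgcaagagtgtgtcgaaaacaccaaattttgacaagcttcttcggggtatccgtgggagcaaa
sls-1.10 (WBGene00077487), chrV:17121670-17121767, minus strand: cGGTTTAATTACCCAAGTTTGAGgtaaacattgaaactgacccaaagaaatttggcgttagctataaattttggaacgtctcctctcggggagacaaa
The SL1 leader in each of the 10 genes called sls-1.10 had 22 bases, and their 98-bp sequences were identical, so these genes are told apart here by their identifiers only. The 2 genes called sls-1.1 are 68 bp long, match the last 68 bases of sls-1.10 and hold no leader. All 18 SL2 genes began with a leader, of 22 bases in 14 genes and 21 to 23 bases over all, in 11 different sequences; the most common was shared by 4 genes. The nonamer AATTTTTGG, of the kind to which Sm proteins bind, was present on the gene strand in 13 SL2 genes. It was present in 0.94% of annotated genes of 68 to 114 bp, a share that counts the SL2 genes themselves. AAATTTTGG was present in 3 other SL2 genes and in all 12 SL1 genes, and its share over annotated genes was not computed. The other 2 SL2 genes, sls-2.2 and sls-2.18, held neither nonamer. A leader was thus present in all 18 SL2 genes and in 10 of the 12 SL1 genes. Leaders were found by their first bases, which both kinds share, so their presence does not tell SL2 from SL1.

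The promoters are shown for the same 5 genes and for sls-2.2, which was listed in 1 set, sls-2.10, which with sls-2.11 matches the shared window at only 6 of 20 positions, and sls-2.12, which was ranked but never listed. Each line gives the 100 bases before the leader in ce11. Capitals mark the 20 positions that the 18 SL2 genes share most, from 62 to 43 bases upstream of the leader, chosen as the best window of that length. In sls-1.10 the same positions are marked, although each of the 10 copies matches the most common SL2 bases at only 4 of 20.
sls-2.1, chrII:5844765-5844864, plus strand: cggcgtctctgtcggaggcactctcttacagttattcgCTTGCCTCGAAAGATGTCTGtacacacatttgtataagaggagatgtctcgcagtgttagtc
sls-2.8, chrIII:12250365-12250464, plus strand: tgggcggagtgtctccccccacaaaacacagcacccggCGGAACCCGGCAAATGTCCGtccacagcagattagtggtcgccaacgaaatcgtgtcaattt
sls-2.16, chrIII:7141291-7141390, plus strand: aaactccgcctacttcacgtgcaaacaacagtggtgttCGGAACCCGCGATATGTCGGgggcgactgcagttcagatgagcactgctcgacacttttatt
sls-2.18, chrIII:7142191-7142290, plus strand: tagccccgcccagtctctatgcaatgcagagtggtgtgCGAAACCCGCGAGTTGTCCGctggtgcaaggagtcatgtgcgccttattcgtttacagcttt
sls-1.10 (WBGene00077487), chrV:17121767-17121866, minus strand: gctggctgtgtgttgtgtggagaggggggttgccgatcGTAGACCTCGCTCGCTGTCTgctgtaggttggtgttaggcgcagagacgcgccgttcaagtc
sls-2.2, chrII:5543498-5543597, plus strand: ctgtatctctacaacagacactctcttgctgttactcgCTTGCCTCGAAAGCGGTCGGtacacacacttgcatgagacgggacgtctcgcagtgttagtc
sls-2.10, chrIV:9130830-9130929, minus strand: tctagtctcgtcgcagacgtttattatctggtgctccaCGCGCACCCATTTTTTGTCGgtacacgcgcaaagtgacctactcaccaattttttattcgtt
sls-2.12, chrIV:5261813-5261912, plus strand: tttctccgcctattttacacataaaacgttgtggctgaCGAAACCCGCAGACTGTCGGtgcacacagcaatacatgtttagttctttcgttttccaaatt
In this window an average of 68.6% of the 18 SL2 genes had the most common base at a position, against 55.0% over all 100 positions. The tetramer TGTC, chosen after the alignment was seen, began 46 to 48 bases upstream on the gene strand in 15 of 18 SL2 genes and in all 10 sls-1.10 genes, and in 1.09% of 46920 annotated genes. The 10 sls-1.10 genes had only 3 different upstream sequences, with at most 2 differences between copies. Anywhere in the 100 bases and on either strand it was present in 18 of 18 SL2 genes and in 39.9% of all genes. A match describes letters only, and no binding of SNAPc was measured.

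A larger share of SL2 genes than of all annotated genes had a listed peak, in every set. Of all 46926 genes, 1.8% had a listed summit within 500 bp in the larger set and 1.86% did in the conservative set, while the replicates gave 1.2% and 0.806%. Of the 18 SL2 genes, the larger set gave 27.8%, the conservative set 33.3% and each replicate 22.2%. Among the 2766 genes of the same length range as the members 8.57% had a listed summit in the larger set. Candidates of any rank were present at 83.3% of SL2 genes in replicate 2 and at 72.2% of them in each of the other sets. Over all genes the shares were 18.9%, 23.2%, 32.7% and 42.6% in the larger set, the conservative set, replicate 1 and replicate 2, and among genes of the members' length 34.6% in the larger set. For SL1 genes the shares with a candidate were 16.7%, 25.0%, 16.7% and 33.3%, each near or below that of all genes. Members share sequence with one another, so these are counts of genes and not of independent loci; the 15 candidate-bearing genes of the larger set had 15 different summits. A summit was counted for each gene in reach, but below it is described with the nearest SL RNA gene only.

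The strongest peak at any member was at sls-2.8 (WBGene00004840, chrIII:12250465-12250575), an intergenic SL2 gene with a 23-base leader. Its peak had a signal of 165 in the larger and the conservative set (rank 163 of 9477 and 147 of 12529), 86.2 in replicate 1 (top 0.688% of its candidates) and 79.8 in replicate 2 (top 0.723%). The signal is the authors' peak score, which has no scale shared between lists, so ranks are compared within each list. The summit lay 54 bp upstream of the 5' end in the larger set, 6 bp upstream in replicate 1 and 65 bp upstream in replicate 2, and the IDR was 1.89e-05, 0.000225 and 7.8e-05. The peak was therefore in the top 2% of every list, and its summit fell at or before the gene's first base each time. The coding gene start nearest to sls-2.8 was that of Y75B8A.23, 195 bp away, and a non-coding RNA gene, Y75B8A.49, runs antisense over sls-2.8. The lists carry no strand, so a peak of the antisense gene and of sls-2.8 cannot be told apart.

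At sls-2.1 (WBGene00004833, chrII:5844865-5844974), an intergenic gene whose leader is also that of sls-2.2 and sls-2.3, the replicates placed the summit almost at the same base. It lay 17 bp upstream of the 5' end in the larger set and in replicate 2 and 15 bp upstream in replicate 1. The signal was 140 in the larger set (rank 198, IDR 6.91e-05), 84.8 in replicate 1 (rank 128, IDR 0.00015) and 47.9 in replicate 2 (rank 381, IDR 0.000893). The peak was listed everywhere, but stood relatively lower in replicate 2, at the top 1.41% against the top 0.704% in replicate 1. The nearest coding gene, nep-25, was 228 bp from the summit.

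The peaks counted for sls-2.4 and sls-2.9 had summits farther from the SL2 gene. At sls-2.4 (WBGene00004836) the summit of the larger set lay 175 bp past the 5' end, 66 bp beyond the 3' end of the gene and 57 bp from the coding gene R12E2.11, with a signal of 128 (rank 246, IDR 0.000127). Replicate 1 had the same summit (signal 75.8, rank 165, IDR 0.000989), whereas replicate 2 placed it 101 bp past the 5' end, inside sls-2.4 (signal 54.7, rank 305, IDR 0.00056). The antisense non-coding RNA gene R12E2.18 overlaps sls-2.4 and lay 1 bp from the summit of replicate 2. A peak of R12E2.11 or R12E2.18 and a peak of sls-2.4 cannot be told apart. In sls-2.9 (WBGene00004841) the summit was 144 bp upstream in the larger set, 165 bp in replicate 1 and 169 bp in replicate 2. It lay inside the transfer RNA gene WBGene00014446 and the non-coding RNA gene M01E5.8 each time. Its signals were 105, 57.7 and 50.6, at ranks 348, 355 and 340, and its IDRs 0.00206, 0.00636 and 0.000998. A peak of the transfer RNA gene and a peak of sls-2.9 cannot be told apart at this distance. Without summits within 500 bp of a transfer RNA or small nucleolar RNA gene, a choice made after seeing the data, 4 SL RNA genes remained in the larger set.

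A further 3 SL2 genes were listed in 1 set only, next to their 5' ends. The summit at sls-2.18 (WBGene00004850, chrIII:7142291-7142397) was 11 bp inside the gene, with a signal of 64.1, and passed in the larger set (IDR 0.00514). The conservative set gave it an IDR of 0.0258 and the replicates 0.117 and 0.105, all above the threshold. The summit at sls-2.16 (WBGene00004848, chrIII:7141391-7141499) was 16 bp upstream and passed in the conservative set (IDR 0.003) but not in the larger set (0.523), although it had a higher signal, 93.4, than that of sls-2.18. In the replicates its IDR was 0.115 and 0.941, and its rank 710 and 379. Signal order and listing thus differed between these neighbours, which lie in the same coding gene, glr-2, a glutamate receptor subunit. At sls-2.2 (WBGene00004834, chrII:5543598-5543707) the summit was 21 bp upstream, with a signal of 74.0 and an IDR of 0.0086 in the conservative set and 0.0182 in the larger set. Its candidates in replicate 1, 33 bp inside the gene, and in replicate 2, 24 bp upstream, had IDRs of 0.0432 and 0.0307. The antisense non-coding RNA gene C17C3.23 lay 4 bp from the summit of the larger set.

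**Figure D1:**
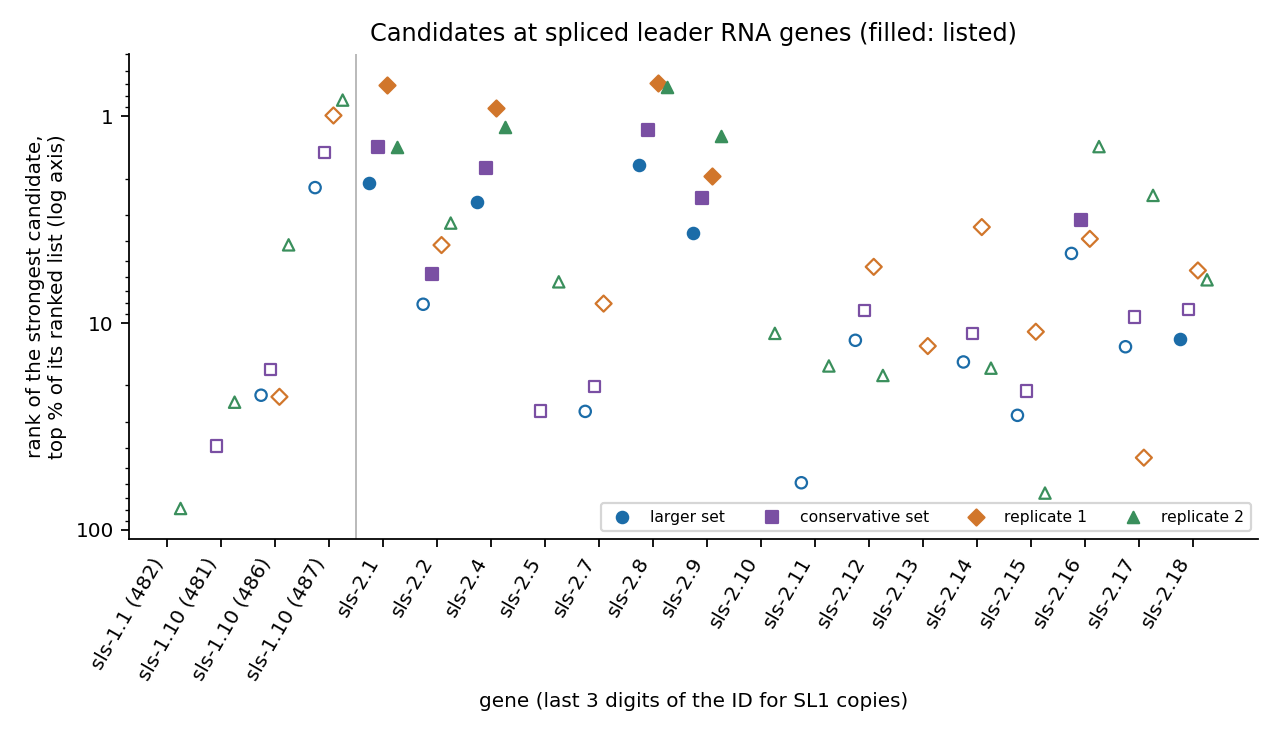
Rank of the strongest candidate at each SL RNA gene that had any, as the top percent of its ranked list on a log axis with the strongest at the top, in the larger set, the conservative set and each replicate. Filled symbols are listed peaks; sls-2.1, sls-2.4, sls-2.8 and sls-2.9 are filled in all 4 sets, and the SL1 copy WBGene00077487 ranks beside them but is open throughout.

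SL2 genes with a candidate but no listed peak in any set had lower signals in the larger set, and most had summits in similar places. The replicates did not keep this order throughout. sls-2.14 had rank 624 in replicate 1, where sls-2.16 had 710, and sls-2.17 had rank 654 in replicate 2, where sls-2.2 had 889. In the larger set, sls-2.12 had a signal of 63.9 with the summit 10 bp upstream, sls-2.17 had 62.1 with the summit 15 bp upstream, and sls-2.14 had 58.9 with the summit 34 bp upstream. Their IDRs were 0.541, 0.248 and 0.698. At sls-2.7 the summit was 8 bp past the 5' end, and the signal was 50.4 (IDR 0.329). At sls-2.15 it was 111 bp past the 5' end, on the last base of the gene, and the signal was 49.9 (IDR 0.598). The candidate counted for sls-2.11 was the weakest, with a signal of 40.1 at rank 5605, and lay 423 bp past the 5' end. sls-2.18, with a signal of 64.1, was listed just above this group, and sls-2.12, with 63.9, was not. Of the 5 SL2 genes with no candidate in the larger set, sls-2.3 (through a summit nearer to sls-2.2) and sls-2.10 had one in replicate 2, sls-2.5 in the conservative set and replicate 2, and sls-2.13 in replicate 1. sls-2.6 had none in any set; it lies in an intron of hgo-1 and its upstream window matched the most common bases at 7 of 20 positions.

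Candidate summits counted for SL2 genes lay mostly near the 5' end, less so in replicate 2. Only summits within 500 bp of a gene enter, and earlier results of these data were known, so the positions are a description. SL2 genes are 107 to 114 bp long, so the 60 bp used below takes in part of the gene. Over the 13 SL2 genes with a candidate of their own in the larger set, the median summit was 15 bp upstream of the 5' end and 9 summits lay within 60 bp of it. The median was 16 bp upstream in the conservative set, with 10 of 13 within 60 bp, 6 bp upstream in replicate 1, with 9 of 13, and 16 bp upstream in replicate 2, with 7 of 14. For the listed peaks alone the median position, negative upstream, was -17 bp in the larger set, -10.5 bp in replicate 1 and -41 bp in replicate 2. These medians rest on 5 summits in the larger set and 4 in each replicate, among which sls-2.4 lies past the 5' end and sls-2.9 before it.

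**Figure D2:**
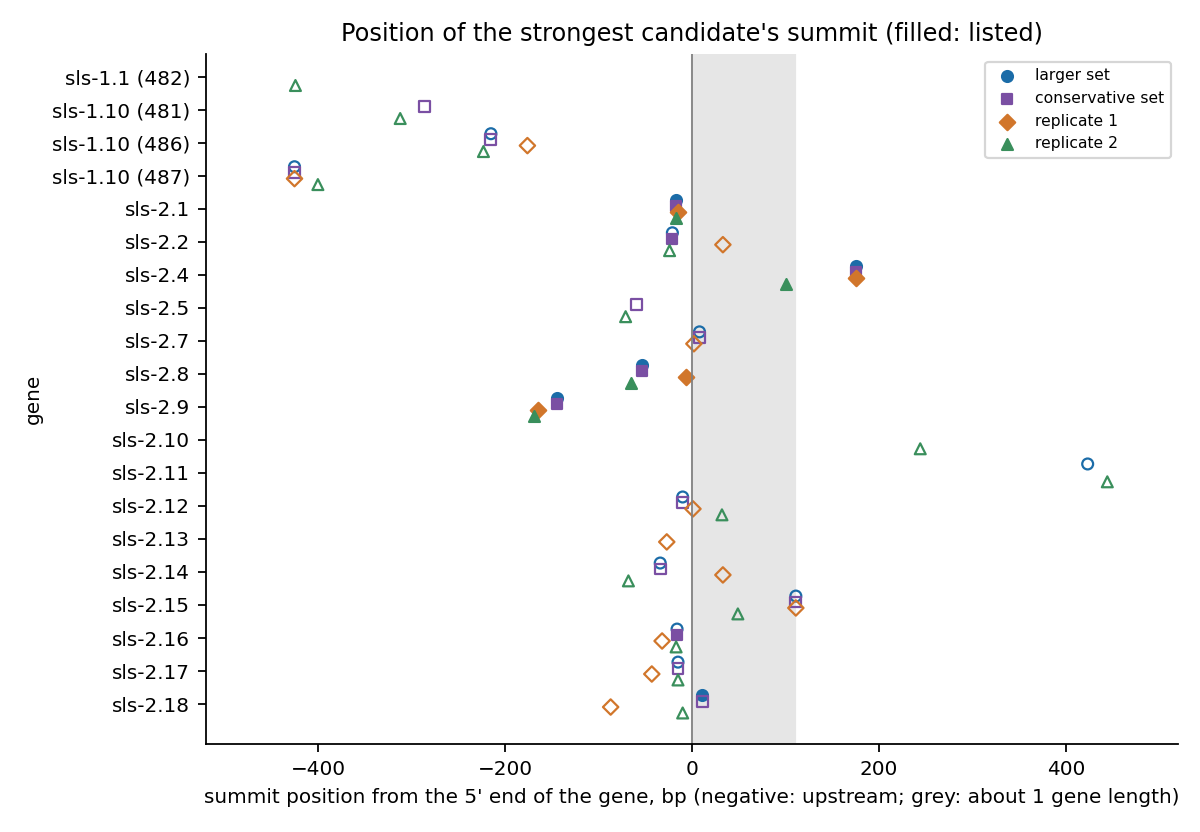
Summit position of the strongest candidate at each SL RNA gene, in bp from the 5' end of the gene, for the 4 sets (filled symbols are listed; the grey band spans 110 bp from the 5' end). Most SL2 summits lie near 0, those of sls-2.9 lie upstream and those of sls-2.4 downstream, and all SL1 summits lie at least 176 bp upstream.

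**Figure D3:**
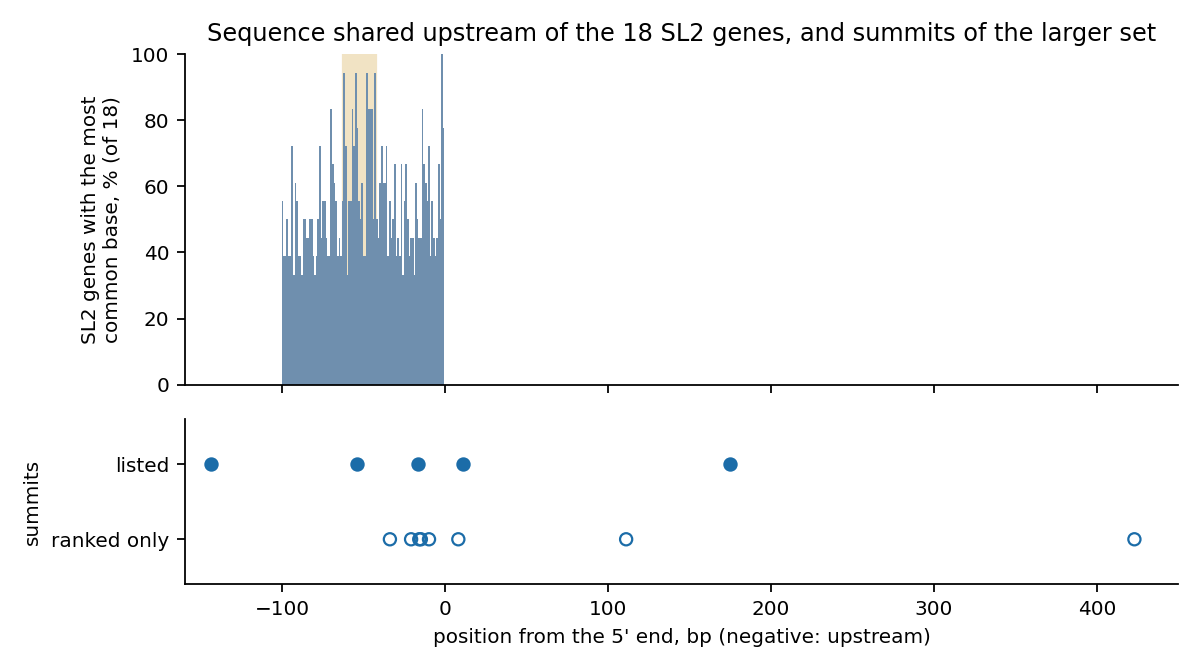
Percent of the 18 SL2 genes with the most common base at each of the 100 positions upstream of the leader (bars; the shaded window runs from 62 to 43 bases upstream), above the summits of the 13 SL2 genes with a candidate in the larger set. Over all 13 genes, 5 listed and 8 ranked only, the summits lie mostly between the shared window and the first bases of the gene. Among the 5 listed, the summit of sls-2.8 lies in the window, that of sls-2.9 upstream of it and that of sls-2.4 past the gene.

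Where both replicates had a candidate of an SL2 gene's own, their summits lay within 1 gene length of each other. Both had a candidate of its own at 11 SL2 genes, and the summits of the pairs were 2 to 101 bp apart, with a median of 57 bp and 4 pairs within 30 bp. In 7 of the 11 the candidate was in the top 10% of both lists. The 4 genes listed in both replicates were in the top 2% of each. The replicates ranked sls-2.15 and sls-2.17 least alike, in opposite orders. sls-2.15 was in the top 11.0% of replicate 1 and the top 66.3% of replicate 2, and sls-2.17 in the top 44.7% and the top 2.41%. Replicate 2 ranked more candidates than replicate 1, so equal percentages are not equal peak strengths.

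No feature of promoter sequence or setting that was examined divided the listed SL2 genes from the others. A listed peak in at least 1 set was present at 7 SL2 genes, of which 2 lie in introns of coding genes and 5 outside them; of the other 11, 5 lie in introns and 6 outside. An antisense non-coding RNA gene overlaps 3 of the 7 and 1 of the 11. TGTC stood at the place described above in 6 of the 7 and 9 of the 11. The match to the most common bases of the upstream window had a median of 13 of 20 positions in the 7 (range 11 to 17) and 17 of 20 in the 11 (range 6 to 18). Those bases come from the same 18 SL2 genes, near-copies included, so the 11 genes weigh more in the bases they are scored against. The listed genes sls-2.16 and sls-2.18 matched at 17 positions each. sls-2.14 and sls-2.15 matched at 18 each and were listed in no set, while sls-2.9 matched at 11 and was listed in all. The GC content of the 100 upstream bases had a median of 52% in the 7 (48 to 57%) and 48% in the 11 (38 to 58%).

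Sequence that occurs more than once in the genome was less common around the 5' ends of the listed genes. Of the 24-base words within 130 bp of the 5' end, the median share present at least 2 times in the genome was 9.66% in the 7 listed genes (range 0.42 to 31.1%) and 30.3% in the other 11 (10.1 to 76.9%), and the ranges overlapped. Around the summit of the larger set the share was higher for sls-2.9 (26.9%, against 2.1% at its 5' end) and lower for sls-2.4 (0%, against 13.4%). Pairs of SL2 genes have near-copies of each other's promoter: sls-2.12 and sls-2.17 are identical at 96% of the 100 upstream bases, sls-2.10 and sls-2.11 at 95%, and sls-2.13 and sls-2.17 at 93%. None of these 5 genes was listed in any set. At lower identity both listed and unlisted genes occur. sls-2.18 and sls-2.5 are identical at 83%, with sls-2.18 listed in 1 set, and sls-2.14 and sls-2.15 at 82%, with neither listed in any set. sls-2.1 and sls-2.2 are identical at 79%, with sls-2.1 listed in 4 sets and sls-2.2 in 1. How the authors treated reads that map to several places is not given in the sources used here, and the part of repeated sequence in these results was not tested.

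The SL1 genes share 1 array, and 1 candidate there was strong. The array runs over 16.2 kb, chrV:17115903-17132107, and holds the 12 SL1 genes and 14 genes of 5S ribosomal RNA, called rrn-4 in the annotation, with 11 SL1 genes on the minus strand and all 14 5S genes on the plus strand. Neighbouring sls-1.10 copies most often began 976 bp apart. The larger set had 3 candidates in the array, the conservative set 4, replicate 1 had 3 and replicate 2 had 5, and 0 were listed in any set. In each set exactly 1 of them met the IDR threshold, and it was the same place.

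That candidate, chrV:17122062-17122321 in the larger set, lay 425 bp upstream of the sls-1.10 copy WBGene00077487 and 130 bp beyond the nearest 5S gene, WBGene00077469. Its signal was 136 in the larger set (rank 209, IDR 3.25e-05), 74.4 in replicate 1 (rank 180, IDR 0.000391) and 67.9 in replicate 2 (rank 226, IDR 0.000174). By rank it stood beside the 4 SL2 genes listed everywhere: in the larger set sls-2.1 was at rank 198 and sls-2.4 at rank 246. It was nevertheless in none of the listed sets, and it is 1 of 149 candidates of the larger set that met the IDR threshold and were not listed. The authors' notes show that each listed set draws on 1 further file whose nature they do not state, and the reason for the omission was not tested. The replicates placed the summit 25 bp apart. Within 130 bp of it, 69.3% of the 24-base words occur 5 or more times in the genome and 79.8% at least 2 times. Around the 5' ends of the 12 SL1 genes the share present 5 or more times was 45.4 to 100% with a median of 100%. Around those of the 18 SL2 genes it was 0 to 1.68% with a median of 0%, but it was 23.1% around the summit counted for sls-2.9 in the larger set. The effect of these copies on where a summit is placed in the array was not tested.

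The other SL1 candidates were weaker and farther from the threshold. The candidate nearest to the copy WBGene00077486 had a signal of 52.8 in the larger set (rank 2117, IDR 0.553) and its summit fell inside a 5S gene, 215 bp upstream of the SL1 copy. It ranked at the top 4.18% in replicate 2 and at the top 22.7% in replicate 1. A summit near WBGene00077481 was ranked in the conservative set and in replicate 2 (IDR 0.286 and 0.92), and 1 near the sls-1.1 copy WBGene00077482 in replicate 2 alone (IDR 0.972). No candidate lay within 500 bp of the remaining 8 SL1 genes in any set. The summits of SL1 candidates lay 176 to 425 bp upstream of the SL1 gene, and 0 of them lay within 60 bp of a 5' end, unlike those of SL2 genes. The listed peak nearest to the array was 150.0 kb away in the larger set.

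**Figure D4:**
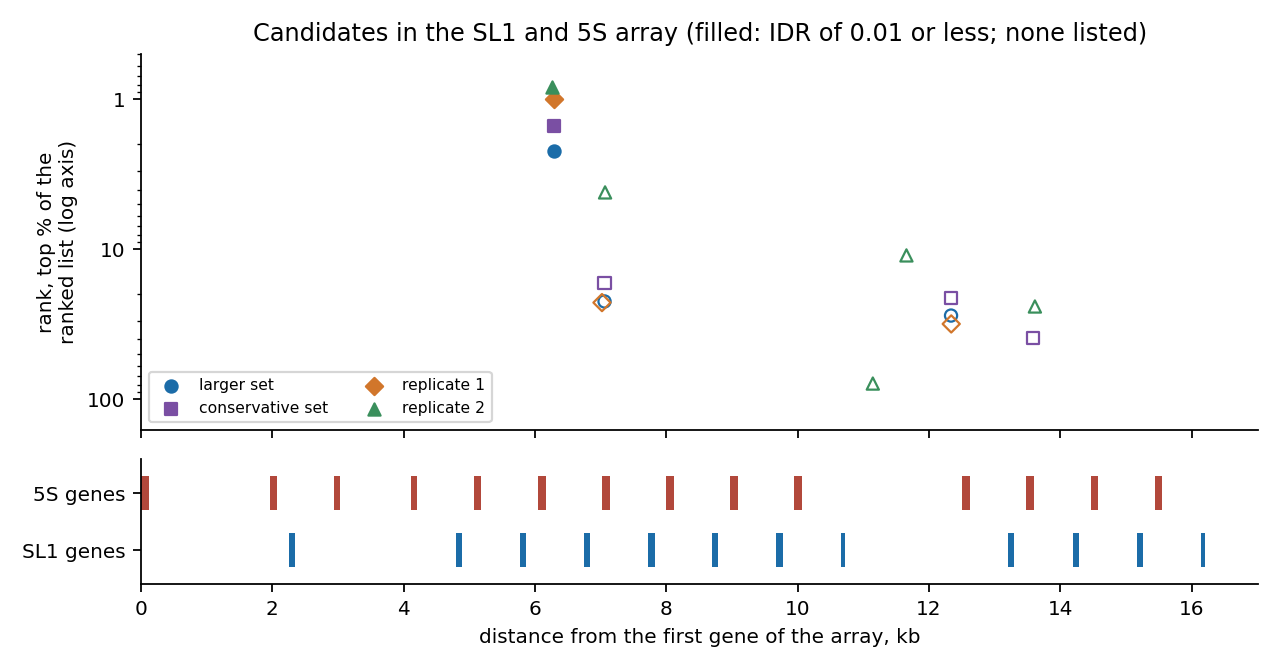
Candidates within the array of SL1 and 5S genes, by distance from its first gene in kb and by rank as the top percent of the ranked list on a log axis, with the genes drawn below. Filled symbols met the IDR threshold, and in each of the 4 sets this was only the candidate near 6.3 kb; 0 were listed.

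The distances that decided membership left few genes near the limit of 500 bp. In the larger set the farthest summits still counted were 425 bp from WBGene00077487 and 315 bp from sls-2.11, and the nearest not counted were 587 bp from sls-2.3 and 664 bp from the sls-1.10 copy WBGene00077485. Among listed peaks the farthest counted was 144 bp from sls-2.9 and the nearest not counted was 803 bp from sls-2.16.

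Compared with the other short RNA classes scored here, SL2 genes had a candidate and a listed peak more often, by counts that were given no test. Transfer RNA genes were not scored as a class. Of the other 89 small nuclear RNA genes, 41.6% had a candidate and 12.4% a listed peak in the larger set; for 344 small nucleolar RNA genes the shares were 37.5% and 13.4%, and for SL2 genes 72.2% and 27.8%. In replicate 1 the listed shares were 11.2%, 9.01% and 22.2%, and in replicate 2 they were 6.74%, 7.85% and 22.2%. In replicate 2 the listed genes were 4 of 18 SL2 genes and 6 of 89 small nuclear RNA genes, so the difference rests on few loci. The 16 genes of 5S ribosomal RNA, most of them in the SL1 array, had a candidate in 25.0% and a listed peak in 0 of 16, much as SL1 genes did with 16.7% and 0 of 12. Summits at small nuclear RNA genes had a median of 4 bp inside the gene and those at small nucleolar RNA genes of 34 bp upstream, with 54.1% and 46.5% within 60 bp of the 5' end, against 69.2% at SL2 genes.

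**Figure D5:**
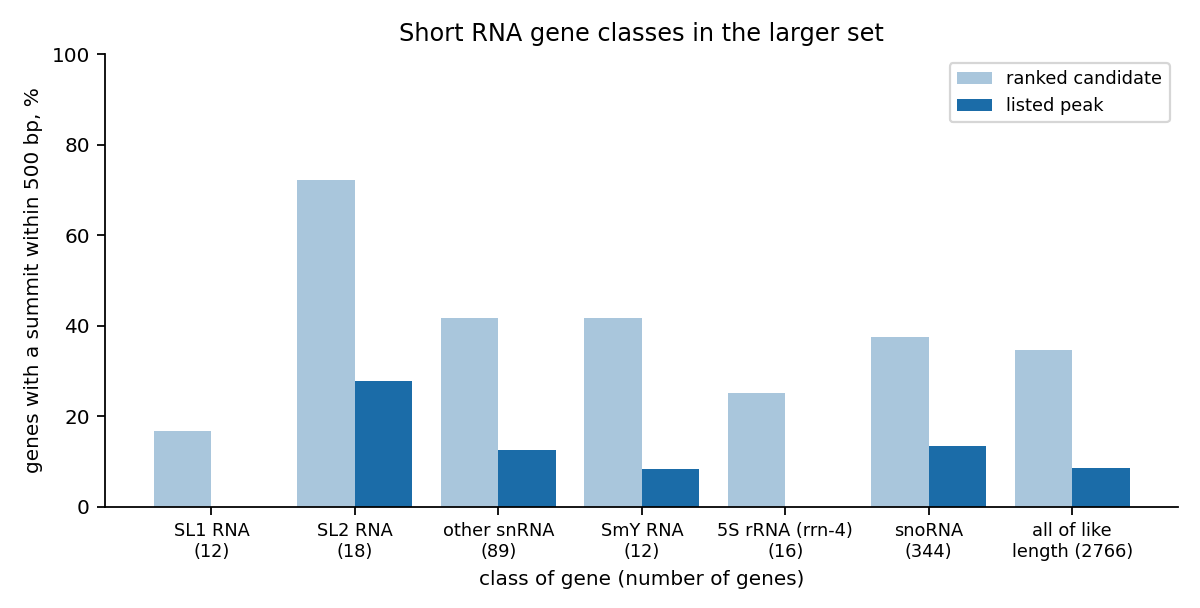
Percent of the genes of each class with a candidate (pale bars) or a listed peak (dark bars) within 500 bp in the larger set, with the number of genes under each class and all annotated genes of the members' length range at the right. Among the classes shown, which leave out transfer RNA genes, SL2 genes have the tallest bars, 72.2% and 27.8%. SL1 and 5S genes have no listed peak.

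Genes for proteins that act with SL RNAs were scored in the gene and up to 500 bp upstream, a narrower window than that of the members. Of 19 genes, for subunits of SNAPc, Sm proteins, SL-specific proteins and the enzyme of cap trimethylation, 9 had a candidate in the larger set and 2 a listed peak. Of all annotated genes, 18.9% had a candidate and 1.8% a listed peak within 500 bp on either side. The 19 are coding genes scored over their whole length, and the share among coding genes alone was not computed. The first of the 2 listed was snpc-3.4, a SNAPc subunit gene, with the summit 24 bp upstream, a signal of 72.9 and an IDR of 0.00835. It was also listed in replicate 1, but not in replicate 2, where the IDR was 0.849. The second was snr-4, an Sm protein gene, with a signal of 132 and the summit 365 bp upstream, listed in all 4 sets. That summit lies inside the non-coding RNA gene C52E4.14, so its assignment to snr-4 is uncertain. Of the 12 genes of SmY RNAs, small RNAs that associate with Sm proteins and SL RNAs, smy-3 was listed, in the larger set and replicate 2, 74 bp upstream with a signal of 85.4, and its summit was 44 bp from the coding gene him-5. The SmY share, 8.33%, is near the 8.57% of annotated genes of the members' length.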

How the data were processed

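Whole worms of 1 group, 2 biological replicates per the labels, were assayed by chromatin immunoprecipitation and sequencing. Peak lists on assembly ce11, per the deposited read-me texts, give a signal score from the authors' peak caller, a second score that is the authors' IDR on a scaled log, the −log10 of the IDR, deposited with a cap of 5, and other columns such as the deposited summit offset in bp. Aligner, peak caller and the handling of multiply mapped reads were not stated in the sources used here. Positions were counted from 1 and peaks were compared with Ensembl release 115 genes; 0 peaks ran past a chromosome end of the RefSeq assembly. A gene was scored where a summit lay in it or within 500 bp. The alternatives were 200 and 1000 bp, other reference points, other lists, an IDR of 0.001 and each replicate alone. No test was made, since there is 1 group and the members were chosen by name. Members and lists were chosen with earlier results of these data known. Genes are named if listed in any set, and otherwise by their best candidate in the larger set. 5S genes were planned under another symbol and taken as rrn-4. The scoring was tested on simulated data. Python 3.11.15, numpy 2.4.6, pandas 2.3.3 and matplotlib 3.10.9 were used.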

Additional observations from a re-analysis of the deposited data

How the results depend on the processing

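The number of SL RNA genes with a listed peak in the larger set, 5, was 3 at an IDR of 0.001 or less, where sls-2.9 and sls-2.18 were lost; the SL2 count was 3 as well. It ranged from 3 to 7 over all alternatives. The SL1 count of 0 became 2 when every ranked candidate that met the IDR threshold was counted, both genes being in reach of 1 summit, and it was 0 under each of the other alternatives. Each replicate's own lists gave 4 SL2 genes. The count of genes with a candidate, 15, ran from 11 to 19. The median position of the listed summits, 17 bp upstream, ran from -41 to -10.5 bp in the replicates. Of 40 alternative values, 36 stayed within 1.5 times the count, or within 1 SD of the position. These values overlap: the SL1 count stayed 0 under all but 1 alternative, and the total then equals the SL2 count. The SD, 21.6 bp, comes from the 2 replicate medians that it judges. The share of 36 in 40 is therefore no measure of robustness. No paired analysis was possible because there is 1 group. With 4 to 6 listed genes per set, 1 gene moves every share by several points, and the lists hold no read depth.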
